A study of Mus musculus with 10 samples.

Results

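Peak lists of ATAC-seq, an assay in which a transposase cuts accessible DNA so that stretches of open chromatin appear as peaks of reads, were compared between 2 libraries of reactivated and 2 libraries of activated neural stem and progenitor cells (NSPCs). The 4 lists were taken on chromosomes 1 to 19, overlapping or abutting peaks were merged into sites, and each site was assigned to the gene with the nearest protein-coding transcription start site. A site was called reactivated-only where both reactivated libraries and neither activated library had a peak, and activated-only in the opposite case. Of 96999 merged sites, 67669 had a peak in 2 or more of the 4 libraries. These comprised 23038 reactivated-only sites, 248 activated-only sites and 44383 sites with a peak in both states, and 29330 further sites had a peak in a single library. A gene or a promoter was given the same names where its peaks came from one state in both libraries and from the other state in neither.

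The NSPCs came from C57BL/6 mice at postnatal day 5. Activated cells were grown with 20 ng/ml FGF2 and 20 ng/ml EGF, and 50000 cells were plated 24 h before collection. Quiescent cells had EGF withdrawn and 25 ng/ml BMP4 added beside FGF2, for 4 days by the labels. The study's methods give a shorter time for the quiescent libraries. Reactivated cells had 4 days of BMP4 and were then kept for 9 to 12 days in the activated medium. All were primary cultures that mix stem cells with progenitors, and the reactivated cells had been in culture longer than the activated cells, so that time in culture and reactivation cannot be told apart. The study describes the replicates of each state as biological. With 2 libraries per state, every p-value below rests on the spread between these 4 libraries.

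The 6 ATAC-seq lists of the series held between 47323 peaks (activated 2) and 107137 peaks (reactivated 2). On chromosomes 1 to 19 the 2 activated lists held 56961 and 46071 peaks and the 2 reactivated lists 103186 and 103783. The peak names of the reactivated lists carry a mark of read downsampling and are built differently from those of the activated and quiescent lists, so that library handling and state cannot be told apart. The weakest peak called had a read pileup of 17 and 16 in the activated lists and of 16 and 16 in the reactivated lists, against a background pileup of 6.54 and 6.01, and 6.5 and 6.52. Read counts per region were not used here. Every comparison was therefore also made with each list cut to its 46071 strongest peaks by -log10 p, the length of the shortest list, which is called equal length below. At equal length the last peak kept had a -log10 p of 7.52 and 3.55 in the activated lists and of 22.9 and 22.2 in the reactivated lists. In such bulk samples, a larger share of cells with an open site and a site more open in each cell cannot be told apart.

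Quiescent neural stem cells rest outside the cell cycle and are held there by BMP signals, which act through SMAD factors and the ID genes. EGF and FGF2 acting through the ERK kinases bring them back into division. Regulatory DNA that binds transcription factors is depleted of nucleosomes, so that open promoters and enhancers differ between cell states, with enhancers usually differing more than promoters.

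The DNA beneath the strongest sites of each class is shown first, because its composition differed between the classes. The sequences are 200 bp around the summit, on the + strand of GRCm38 (mm10), and strength is the mean percentile of fold enrichment within the lists of the state. Capitals mark the longest tandem run, that is a unit of 1 to 4 bases repeated at least 4 times without a break, where it reached 20 bp. The 3 strongest reactivated-only sites lay near BC048403 (chr10:121763135-121763334, intergenic), in an intron near Tiam2, which encodes an activator of the GTPase RAC1 (chr17:3379715-3379914), and near Ankrd66 (chr17:43551224-43551423, intergenic). The 3 strongest activated-only sites lay near Pthlh, which encodes parathyroid hormone-like hormone (chr6:147236732-147236931, intergenic), in an intron near 4930524B15Rik (chr11:31922631-31922830) and in an intron near Bbip1, which encodes a subunit of the BBSome of cilia (chr19:53938794-53938993).
BC048403, reactivated-only: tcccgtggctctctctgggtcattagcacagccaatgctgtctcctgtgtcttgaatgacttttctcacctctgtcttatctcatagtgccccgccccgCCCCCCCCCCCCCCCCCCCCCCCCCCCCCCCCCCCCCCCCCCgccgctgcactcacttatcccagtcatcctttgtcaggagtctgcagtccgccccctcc
Tiam2, reactivated-only: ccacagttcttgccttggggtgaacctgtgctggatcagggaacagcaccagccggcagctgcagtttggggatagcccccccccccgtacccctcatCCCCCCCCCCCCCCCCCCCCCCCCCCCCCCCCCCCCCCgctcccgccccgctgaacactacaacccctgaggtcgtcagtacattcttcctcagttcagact
Ankrd66, reactivated-only: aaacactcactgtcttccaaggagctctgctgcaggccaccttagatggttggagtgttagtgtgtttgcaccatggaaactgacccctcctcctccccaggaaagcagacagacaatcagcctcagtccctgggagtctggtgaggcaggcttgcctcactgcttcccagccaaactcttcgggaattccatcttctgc
Pthlh, activated-only: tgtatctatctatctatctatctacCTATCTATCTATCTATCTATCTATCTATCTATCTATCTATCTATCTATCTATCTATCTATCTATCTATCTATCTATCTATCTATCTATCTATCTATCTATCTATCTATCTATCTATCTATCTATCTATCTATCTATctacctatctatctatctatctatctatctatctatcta
4930524B15Rik, activated-only: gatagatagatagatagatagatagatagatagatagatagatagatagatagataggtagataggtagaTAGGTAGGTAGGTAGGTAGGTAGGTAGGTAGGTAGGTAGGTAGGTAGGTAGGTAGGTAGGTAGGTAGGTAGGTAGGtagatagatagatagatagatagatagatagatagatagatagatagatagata
Bbip1, activated-only: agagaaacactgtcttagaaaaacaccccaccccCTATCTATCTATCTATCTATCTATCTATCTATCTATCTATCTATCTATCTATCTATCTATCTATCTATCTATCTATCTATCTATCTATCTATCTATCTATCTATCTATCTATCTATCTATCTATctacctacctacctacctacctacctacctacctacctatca

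Pthlh and Bbip1 carried runs of the unit ctat of 136 and 124 bp, and 4930524B15Rik a run of tagg of 76 bp. Runs of c of 42 and 38 bp lay beneath the BC048403 and Tiam2 peaks, whereas the longest such run at Ankrd66 was 4 bp. These are the leading sites only, and the shares over all sites of each class are given with the repeats below.

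A further 3 sequences, chosen after the data were seen, stand for sites near markers of neural stem cells and astrocytes, with capitals for the motifs found. The reactivated-only site near Atp1b2, a sodium pump subunit of astrocytes (chr11:69592436-69592635, 10405 bp from the start site), held none of the motifs searched. The other two lie upstream of Sox9, a transcription factor of neural stem cells and astrocytes. The reactivated-only site (chr11:112044537-112044736, 737585 bp from the start site) held the NFI motif TTGGCA on the opposite strand, and the activated-only site (chr11:112314273-112314472, 467958 bp from the start site) held the AP-1 motif TGANTCA.
Atp1b2, reactivated-only: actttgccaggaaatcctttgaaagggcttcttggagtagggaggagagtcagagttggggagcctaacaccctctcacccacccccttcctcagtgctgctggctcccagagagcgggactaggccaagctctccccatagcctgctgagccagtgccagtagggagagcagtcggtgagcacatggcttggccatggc
Sox9, reactivated-only: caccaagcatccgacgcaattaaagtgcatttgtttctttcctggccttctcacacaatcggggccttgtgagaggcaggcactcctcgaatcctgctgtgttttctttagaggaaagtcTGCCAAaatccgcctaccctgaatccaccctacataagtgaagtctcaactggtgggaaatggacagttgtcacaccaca
Sox9, activated-only: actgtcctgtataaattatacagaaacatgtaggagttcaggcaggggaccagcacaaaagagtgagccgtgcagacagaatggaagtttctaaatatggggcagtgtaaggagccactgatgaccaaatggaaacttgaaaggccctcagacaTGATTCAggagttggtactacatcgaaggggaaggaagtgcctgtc

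Far more sites were open in the reactivated cells only than in the activated cells only in the lists as deposited, and the numbers came close to each other at equal length. As deposited, 23038 of the 67669 sites were reactivated-only (34.0%) and 248 were activated-only (0.366%). At equal length 51560 merged sites remained, of which 38807 had a peak in 2 or more libraries. The reactivated-only sites then numbered 3041 (7.84%) and the activated-only sites 2337 (6.02%). The ratio of the classes therefore changed when the lists were cut. Cutting all lists to the same length brings the classes closer in size by construction. The cut thus cannot tell how far list length set the deposited ratio. A shared threshold, a -log10 q of at least 10, left fewer activated-only sites than the 248 as deposited. The deposited counts alone give no measure of how many sites opened or closed. With 1 reactivated library left out, so that the other stood for its state, 38512 and 37532 sites were reactivated-only. Leaving out a library gave 504 to 1691 activated-only sites, with 1477 and 1691 without activated 1 and activated 2 and 523 and 504 without reactivated 1 and reactivated 2.

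**Figure D1:**
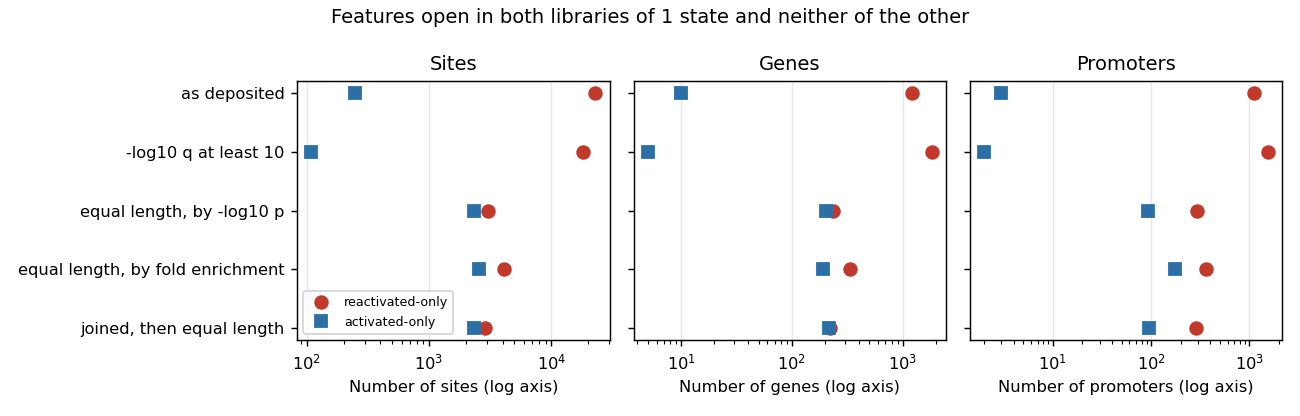
Numbers of reactivated-only (red circles) and activated-only (blue squares) sites, genes and promoters on logarithmic axes, under 5 settings of the peak lists. The 2 classes stand far apart in the lists as deposited (23038 and 248 sites) and close together at equal length (3041 and 2337 sites).

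Sites of the equal-length classes were then looked up in the whole lists. Of the 3041 equal-length reactivated-only sites, 2332 (76.7%) had no peak in either activated list and 709 (23.3%) had one in a single activated list. Their median fold enrichment over the local background was 7.20 and 7.18 in the 2 reactivated libraries. Of the 2337 equal-length activated-only sites, 143 (6.12%) had no reactivated peak, 325 (13.9%) had one in a single reactivated list and 1869 (80%) had one in both. At those 1869 sites the median fold enrichment was 4.11 and 3.58 in the activated libraries and 4.14 and 4.21 in the reactivated libraries. Most equal-length activated-only sites were therefore sites of lower rank in the reactivated lists, not sites without a reactivated peak. The 2332 and the 143 sites thus overlapped no peak of the other state in the whole lists. Whether each keeps its class under both definitions, as deposited and equal length, was not counted.

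The reactivated-only sites were narrower than sites of both states and lay farther from start sites. As deposited, the median width was 266 bp for reactivated-only, 281 bp for activated-only and 475 bp for sites of both states, and the median distance to the nearest start site was 26069, 33975 and 13261 bp. The equal-length widths were 359, 278 and 503 bp and the distances 29343, 23077 and 8968 bp. Promoters, taken as 1 kb to either side of a start site, held 13.1% (exact 95% interval 12.7 to 13.5) of reactivated-only sites, 5.24% (2.82 to 8.80) of activated-only sites and 30.3% of sites of both states. The equal-length shares were 15.6, 10.8 and 37.1%. Introns held 47.0% of the reactivated-only sites and intergenic DNA 34.3%. These intervals, and those below, are exact (Clopper-Pearson) and cover counting error only.

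Over whole libraries, promoters took 31.8 and 35.9% of joined peaks in the activated cells (33.9% ± 2.91, SD, n = 2) and 24.3 and 24.4% in the reactivated cells (24.4% ± 0.0762, SD, n = 2). The 2 pairs did not overlap. An exact permutation test of the 4 libraries gave a two-sided p of 0.333, the smallest that 2 against 2 allows. The difference, reactivated minus activated, turned at equal length from -9.52 to 0.972 percentage points, so its direction depended on the length of the lists.

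Sites called in all 4 libraries numbered 30174. The correlation of log2 fold enrichment at these sites was 0.865 between the activated libraries, 0.901 between the reactivated libraries and 0.674 to 0.753 between states, as a description across sites. At equal length the share of bases covered in both of 2 lists, out of those covered in either, was 0.686 for the reactivated pair, 0.622 for the activated pair and 0.524 to 0.571 for pairs of different state. Against the quiescent libraries it was 0.448 to 0.490 for reactivated and 0.472 to 0.504 for activated libraries. These ranges overlap. As deposited they did not, with 0.383 to 0.419 for reactivated and 0.467 to 0.492 for activated libraries.

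The quiescent libraries took no part in defining the classes. As deposited, both quiescent libraries had a peak at 16.3% (15.8 to 16.8) of reactivated-only sites, at 39.5% (33.4 to 45.9) of activated-only sites and at 60.4% of sites of both states. At equal length, with the quiescent lists cut to the same number of peaks, the shares were 34.3% (32.6 to 36.0), 31.4% (29.5 to 33.3) and 68.3%. The order of the classes changed with the length of the lists. As deposited, no quiescent library had a peak at 15308 (66.4%) of the reactivated-only sites and at 96 (38.7%) of the activated-only sites, and at equal length at 46.4 and 49.1%, where the order turned. Of the 2332 equal-length reactivated-only sites without an activated peak in the whole lists, 33.7% were open in both quiescent libraries by the cut lists.

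Strength moved with this share. Among reactivated-only sites as deposited, both quiescent libraries had a peak at 9.43% of those below the 25th percentile of fold enrichment, at 24.7% between the 50th and 75th and at 31 of the 44 (70.5%) above the 90th. With lists of equal length it ran from 24.0% between the 25th and 50th percentile to 69.4% above the 90th. All 14 activated-only sites above the 75th percentile as deposited were open in both quiescent libraries. All 14 were also soft-masked as repeat over at least 50% of the 200-bp window. At equal length 13 of 25 activated-only sites (52.0%) between the 75th and 90th percentile and all 11 above the 90th were open in both. Above the 90th percentile, most sites of either class were thus sites that quiescent cells had too, with few activated-only sites there.

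**Figure D2:**
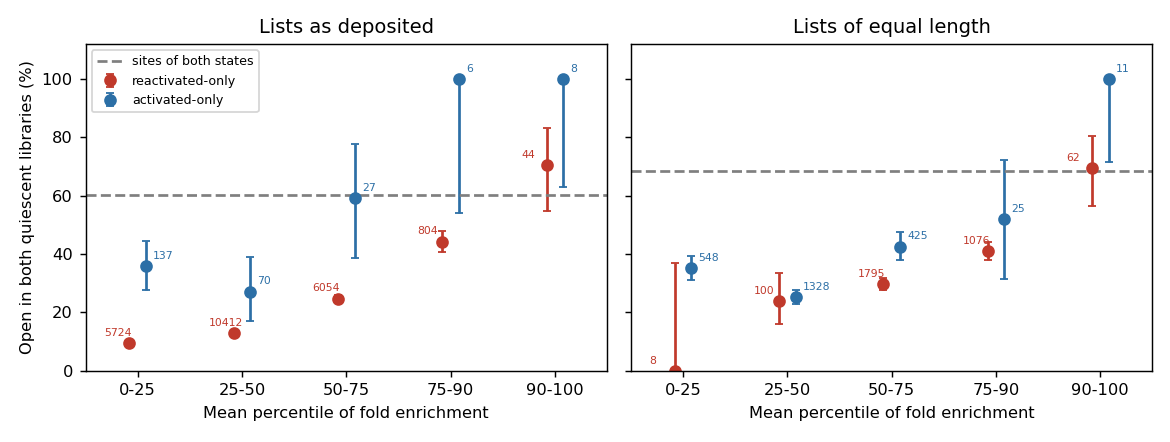
Percent of sites with a peak in both quiescent libraries (vertical axis) by mean percentile of fold enrichment (horizontal axis), for reactivated-only (red) and activated-only (blue) sites, as deposited on the left and at equal length on the right. Bars are exact 95% intervals, printed numbers count sites, and the dashed line marks sites of both states (60.4 and 68.3%). In the lists as deposited the reactivated-only share runs from 9.43 to 70.5%.

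H3K4me3, a histone mark of promoters in use, was measured in 1 library of activated and 1 of quiescent cells. The activated library had an H3K4me3 peak at 13.0% of reactivated-only and 7.26% of activated-only sites. Within promoters the shares were 65.4 and 46.2%, against 91.3% for promoter sites of both states, and outside promoters 5.08, 5.11 and 12.6%. The 46.2% rests on only 13 activated-only promoter sites. The equal-length shares were 17.2% of reactivated-only and 14.4% of activated-only sites, and 70.1 and 67.9% within promoters. With the lists cut by fold enrichment in place of -log10 p they were 12.1 and 30.1%, so the order of the classes depended on the lists. Many promoters with a peak in reactivated cells only therefore carried the mark in activated cells.

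Repeats set the activated-only sites apart. At least 50% of the 200-bp window was soft-masked as repeat at 608 of the 23038 reactivated-only sites (2.64%), at 85 of the 248 activated-only sites (34.3%) and at 2.26% of sites of both states. Tandem runs of 20 bp or more lay at 420 (1.82%), 46 (18.5%) and 1.24% of them. The equal-length masked shares were 1.61, 9.71 and 1.41%, and the shares with a tandem run 1.94, 3.94 and 1.04%. All 10 strongest activated-only sites were masked over 86.5 to 100% of the window, and the 10 strongest reactivated-only sites over 0 to 31.5%. Without the sites masked at 50% or more, 163 activated-only sites were left, of which 42 (25.8%, 19.2 to 33.2) were open in both quiescent libraries, against 56 of the 85 (65.9%) masked ones. The part of read length, mapping or library handling in these repeat peaks was not tested.

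Among the strongest sites, the values in each library were as follows. The BC048403 site had a fold enrichment of 30.0 and 36.1 in the reactivated libraries and a peak of 5.20 in quiescent 2 only. The Tiam2 site had 20.3 and 22.4, with 3.16 and 3.29 in the quiescent libraries. The Ankrd66 site had 14.8 and 14.7, with 6.70 and 6.65 in the quiescent libraries. A site near Slc7a11, which encodes the cystine transporter that feeds glutathione synthesis, had 15.1 and 14.0 and no quiescent peak. Other reactivated-only sites of the leading 10 lay near Tfap2b (13.7 and 14.4) and Gsc (14.2 and 13.5), which encode developmental transcription factors, and 7 of the 10 were open in both quiescent libraries.

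The strongest activated-only sites had quiescent peaks too. The Pthlh site had 21.7 and 23.4 in the activated libraries and 15.3 and 20.5 in the quiescent libraries. The 4930524B15Rik site had 17.4 and 16.8, with 16 and 19.8 in the quiescent libraries, and the Bbip1 site 16.6 and 20.7, with 18.9 and 20.7. The Mgst1 site, near a microsomal glutathione transferase gene, had 9.25 and 12.6, with 3.68 and 5.58. All 10 leading activated-only sites were open in both quiescent libraries, and all lay in repeats.

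Counted by gene, 1228 of 20722 protein-coding genes were reactivated-only (5.93%) and 10 were activated-only (0.0483%), while 14760 were open in both states and 3984 had no peak. The equal-length counts were 234 (1.13%) and 202 (0.975%). The reactivated-only genes of the 2 definitions shared 167 genes, 13.6% of the deposited list and 71.4% of the equal-length list. The activated-only genes shared 3, which is 30.0% of the deposited and 1.49% of the equal-length list. The activated-only genes thus depended almost entirely on how the lists were cut. Genes with at least 1 reactivated-only site numbered 9317 (45.0%), 1201 of them with 5 or more, and those with at least 1 activated-only site 226 (1.09%). The equal-length numbers were 2415 (11.7%) and 1883 (9.09%), with 10 genes at 5 or more reactivated-only sites.

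The strongest reactivated-only genes came from varied families. They were Ankrd66 (14.8 and 14.7 at its strongest site), C1rb, a serine protease of the complement system (14.4 and 10.8), the vomeronasal receptors Vmn1r26 (12.4 and 11.7), Vmn2r40 (9.61 and 12.4) and Vmn2r47 (9.05 and 11.2), Gm4491, Fam47e, Ttc30b, C130074G19Rik, Mr1, a presenter of microbial metabolites to T cells (9.74 and 12.5), Il20ra, a cytokine receptor subunit (9.61 and 10.8), and Itpr3, a calcium release channel (9.07 and 10.9). All 12 were also reactivated-only at equal length. Receptors of the olfactory, vomeronasal and trace amine families made up 53 of the 1228 reactivated-only genes, against 1471 of the 20722 genes (7.10%). Such families hold near-identical copies, between which reads can be split, and their assignment is uncertain.

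The 10 activated-only genes had low peaks apart from Trim30c. Trim30c had 15.9 and 4.99 in the activated libraries. Spata1 had 3.45 and 4.42 and Arl9, which encodes a small GTPase, 4.11 and 3.28, and these 3 were activated-only under both definitions. The promoter window of Spata1 held a peak in both states whose centre lay nearer to another gene. The other 7 genes (Gm21731, S100a8, Olfr461, Vmn2r114, Ugt3a1, Gm16427 and Oas1d) had values between 2.41 and 3.99.

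Promoters with a peak in reactivated cells only numbered 1107 (5.34%), and those in activated cells only 3 (0.0145%), which were S100a8, Gm31371 and Gm47996. At equal length there were 291 (1.40%) and 92 (0.444%). The reactivated-only promoters of the 2 definitions shared 219, or 19.8% of the deposited and 75.3% of the equal-length promoters, and the activated-only promoters shared 0. Zbtb32, a zinc finger repressor, led the class with 14.1 and 18, followed by Rnase6, a secreted ribonuclease, with 13.8 and 16.3 and with 7.49 and 6.88 in the quiescent libraries. Gpr75 (16.5 and 12.9), Slc39a12, a zinc transporter (15.3 and 9.75), Angptl6 (12.3 and 10.6), Sgk2, a serine/threonine kinase (9.47 and 13.7), and Cftr, a chloride channel (11.9 and 10.1), belonged to the same 12, and all 12 were reactivated-only under both definitions. Frem1 and Matn3, which encode matrix proteins, joined them at equal length, each with a weak peak of 3.05 in activated 1.

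The leading activated-only promoters at equal length nearly all had reactivated peaks in the whole lists. Igf2bp3, an mRNA-binding protein of fetal cells, had 7.53 and 6.89 in the activated libraries and 3.57 in reactivated 1 alone. Arid3a had 6.37 and 6.29 against 4.80 and 4.57 in the reactivated libraries, and Srrm3, a splicing regulator of neurons, had 6.84 and 5.89 against 4.80 and 4.26. Six3, a homeodomain factor of the anterior forebrain, had 4.68 and 4.94 against 3.48 and 3.30.

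Genes with the most reactivated-only sites had many sites of the other classes too. As deposited, Ntm, a cell adhesion molecule of neurons, had 28 such sites of 55, Nrxn3, a synaptic adhesion molecule, 25 of 47, Rbfox1, a splicing regulator, 23 of 48, and Sox9 22 of 38. Maf, Auts2, Epha4, Fhit, Sox5, Nav2 and Gse1 were among those that followed, with 20 each. At equal length the 12 genes with the most such sites as deposited had between 0 and 5, with 5 at Nrxn3 and Maf, 2 at Sox9, 1 at Ntm and 0 at Gse1. Gse1 then had 7 activated-only sites, so a large count as deposited did not carry over to equal length for every gene. Tcf7l2, the Wnt effector, had the most at equal length with 6, and Sox2 and Runx2 were among those with 5, which was noted after the data were seen.

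Activated-only sites were spread thinly over genes, with at most 4 at a gene as deposited. Sfi1 and Gpm6a, a membrane glycoprotein of neurons, had 4 each as deposited, and 16 and 8 at equal length. The windows at Sfi1 were masked over 35.3% on average and those at Gpm6a over 10.6%. Snurf (96% masked) and Gas8 (79.4%) had 2 each as deposited and 8 and 5 at equal length. Gm10354, Gm21190 and Speer4d, with 11, 9 and 8 sites at equal length, belong to multicopy families, and their assignment is uncertain.

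Lists of 480 entries in 24 groups were then read by their sites. At equal length, 7.84% of all sites were reactivated-only and 6.02% activated-only, and as deposited 34.0 and 0.366%. A list is described by its count beside these shares, with no test of the list.

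Astrocyte genes had 19 reactivated-only and 4 activated-only sites of 113 at equal length, or 16.8 and 3.54%. Of the 20 members, 11 (55.0%) had a reactivated-only site, against 11.7% of all genes, and the median was 1 site against 0. List members had more sites than other genes, with a median of 3.5 for astrocyte genes against 1 for all genes, and lists near the background by share of sites exceeded 11.7% of genes as well, with 28.0% of BMP, 25.0% of neural stem cell and 25.9% of cell cycle members. As deposited, 68 of 189 sites (36.0%) were reactivated-only, close to the 34.0% of all sites. Gja1, which encodes the gap junction protein connexin 43, had 4 such sites at equal length. Its site 472 kb from the start site had 7.87 and 10.2 in the reactivated libraries, and its site 461 kb away had 11.1 and 7.54. Nfib, a transcription factor of astrocyte formation, also had 4, the strongest with 8.81 and 7.83. Sites near Aqp4, the water channel of astrocyte endfeet (8.41 and 7.94), Slc4a4, a bicarbonate transporter (7.24 and 9.28), Nfia (5.98 and 6.2) and Atp1b2 (11.9 and 8.91, with 4.60 and 5.20 in the quiescent libraries) were of this class. Of the 19 sites, 15 had no activated peak in the whole lists and 4 had one in a single library.

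Promoters of the astrocyte list were mostly open in both states. As deposited, 60.4% of all 20722 promoters were open in both states, 5.34% were reactivated-only and 31.7% had no peak. Of the 20, 15 were open in both states and 4 were reactivated-only, among them Aqp4 (3.68 and 3.45), Gjb6 (3.06 and 3.31) and Apoe. Apoe, a lipid carrier, had 7.15 and 6.91 and was also reactivated-only at equal length. It had quiescent peaks of 3.64 and 2.84. S100b joined this class at equal length with 8.14 and 7.24, a peak of 2.52 in activated 1 and 6.90 and 5.39 in the quiescent libraries.

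Neural stem cell genes stood near the background at equal length, with 11 reactivated-only and 7 activated-only sites of 148 (7.43 and 4.73%). Of the 11, 5 lay near Sox2, the pluripotency and neural stem cell factor, the strongest with 10.9 and 8.38. The Sox9 site 738 kb upstream had 10.5 and 10.4. None of the 11 had an activated peak in the whole lists. Sox9 also had the 2 activated-only sites of this list without a reactivated peak, with 4.24 and 3.42 at 578 kb and 4.24 and 4.71 at 468 kb. As deposited, the promoters were open in both states for 18 of 20 members (60.4% of all promoters), and those of Slc1a3, a glutamate transporter (3.24 and 3.74), and Thbs4, a secreted glycoprotein (3.87 and 5.19), were reactivated-only (5.34% of all promoters).

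The list of mesenchymal transition factors and TGF-beta signalling had 16 reactivated-only and 7 activated-only sites of 94 at equal length (17.0 and 7.45%). As deposited it had 87 of 196 (44.4%). Runx2, the factor of bone formation, had 5 of the 16, all between 6.14 and 9.70. Zeb2, a repressor in epithelial to mesenchymal transition, had a site 1126 kb away with 15.3 and 10.8, and Tgfbr2, the TGF-beta receptor, one with 9.11 and 7.68. An activated-only site near Snai2, with 4.24 and 4.25, had no reactivated peak.

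Regional identity genes of the brain had 16 and 7 of 100 sites (16 and 7.0%), and as deposited the largest reactivated-only share of the lists, 101 of 212 (47.6%). Sites near Meis1 (12.4 and 13.0) and En1, a midbrain factor (11.7 and 10.5), were reactivated-only. Meis2 (4.18 and 3.77) and Otx2, a factor of forebrain and midbrain (4.64 and 4.42, with 4.08 and 4.05 in the quiescent libraries), had activated-only sites without a reactivated peak.

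Genes of EGF, FGF and ERK signalling had 17 and 5 of 138 sites at equal length (12.3 and 3.62%) and 82 of 233 reactivated-only sites as deposited (35.2%). Erbb4, a neuregulin receptor, had a site with 12.4 and 11.7 and quiescent peaks of 8.94 and 8.33, Tgfa, a ligand of the EGF receptor, one with 8.41 and 12.8, and Egfr one with 6.76 and 7.31. Etv1, a transcription factor downstream of ERK, had 4 sites, one of them with 11.1 and 12.0. The promoter of Fgf2 was reactivated-only under both definitions, with 6.58 and 8.15 and with 3.29 and 2.22 in the quiescent libraries. Hence the gene of a factor supplied in the medium had a promoter peak in quiescent and reactivated but not in activated libraries.

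BMP pathway genes did not stand out, with 9 and 5 of 113 sites at equal length (7.96 and 4.42%) and 79 of 211 reactivated-only sites as deposited (37.4%). Id4, an inhibitor of helix-loop-helix factors, had 3 reactivated-only sites, and the receptors Bmpr1a and Bmpr2, the inhibitor Smad7, Msx1, Id3 and Bmp6 had 1 each. The promoter of Bmp6, a ligand, was reactivated-only under both definitions, with 8.95 and 5.77 and with quiescent peaks of 3.68 and 4.43.

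Wnt genes had 14 and 10 of 118 sites (11.9 and 8.47%), of which 6 reactivated-only sites lay near Tcf7l2, the strongest with 10.3 and 12.4. Matrix and adhesion genes had 14 and 7 of 111 (12.6 and 6.31%), with a site near Tnc, the stem cell niche protein tenascin C, at 9.74 and 14.5 and at 10.1 and 10.2 in the quiescent libraries. In the TEAD and YAP list, with 8 and 3 of 80 (10 and 3.75%), Yap1 itself had a site with 10 and 6.92, and 11.3 and 7.49 in the quiescent libraries, and Ccn2, a target of YAP, one with 11.2 and 11.2. As deposited, 30 of 128 sites of this list (23.4%) were reactivated-only, below the 34.0% of all sites, so its place against all sites turned with the lists. The Wnt list had 74 of 210 (35.2%) and the matrix list 71 of 191 (37.2%). Some equal-length reactivated-only sites of these lists had a peak in 1 activated list among the whole lists. They were 6 of 14 Wnt, 4 of 14 matrix and 4 of 8 TEAD and YAP sites, against 23.3% of all such sites.

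Oligodendrocyte genes went the other way at equal length, with 5 reactivated-only and 11 activated-only sites of 90 (5.56 and 12.2%), and neuronal genes had 6 and 9 of 78 (7.69 and 11.5%), Notch genes 4 and 7 of 70 (5.71 and 10%). As deposited these lists had 0 activated-only sites, and 25.2, 34.9 and 30.5% of their sites were reactivated-only. Every activated-only site of these lists had a peak in at least 1 reactivated list. Of the 11 oligodendrocyte sites 9 had peaks in both reactivated lists and 2 in one of them. The site near Olig1, a factor that specifies the lineage, had 3.58 and 2.99 in the activated and 5.6 and 5.72 in the reactivated libraries. Myrf, the regulator of myelin genes, had 5.04 and 4.96 against 5.34 and 4.65. Some others were lower in the reactivated libraries. A Bcas1 site had 4.21 and 4.62 against 2.78 and 2.73. Mbp had 3.69 and 3.71 against a peak of 3.55 in reactivated 2 alone. Of the 9 neuronal sites 6 had peaks in both reactivated lists and 3 in 1, and of the 7 Notch sites 6 and 1. The Notch site near Hey1 had 6.76 and 4.71 against 4.54 and 4.65. Peaks at this site and the Bcas1 site were called lower in the comparison of heights below.

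Promoters of 3 further lists were open in both states as deposited. All 27 promoters of the cell cycle list and all 22 of the ribosomal protein list were open in both states, as were all 15 of the quiescence list, against 60.4% of all promoters. The ribosomal list had 21 of 22 at equal length, against 58.0% of all promoters. At equal length the cell cycle list had 11 and 4 of 127 sites (8.66 and 3.15%), the quiescence list 5 and 3 of 72, the fatty acid list 5 and 5 of 72, the AP-1 list 6 and 6 of 71, the hedgehog list 4 and 4 of 64, the interferon list 2 and 1 of 41 and the ribosomal list 3 and 0 of 33. As deposited, reactivated-only sites made up 42.4% of the quiescence list, 36.8% of the AP-1 list, 37.5% of the hedgehog list, 30.5% of the fatty acid list, 29.9% of the cell cycle list, 25.9% of the interferon list and 17.4% of the ribosomal list, against 34.0% of all sites.

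Markers of other cell types were counted in the same way. Of 15 microglial promoters 12 had no peak in either state and 3 were open in both, 6 of 16 endothelial and mural promoters and 4 of 15 fibroblast and meningeal promoters had none, and 17 of 23 Hox promoters had none, against 31.7% of all promoters without a peak and 60.4% open in both states. Reactivated-only sites at equal length numbered 3 of 20 for microglia, 4 of 38 for endothelial and mural cells, 2 of 31 for fibroblasts and 4 of 43 for ependymal cells, with 1, 0, 0 and 1 activated-only. As deposited, 31 of 72 fibroblast sites (43.1%), 31 of 78 endothelial and mural sites (39.7%), 13 of 37 microglial sites (35.1%) and 20 of 74 ependymal sites (27.0%) were reactivated-only, against 34.0% of all sites. The equal-length shares were 15.0% for microglia, 10.5% for endothelial and mural cells, 9.30% for ependymal cells and 6.45% for fibroblasts, against 7.84%. Promoters open in both states numbered 7 of 15 for fibroblasts and 5 of 16 for endothelial and mural cells. The promoters of Dcn, Mgp and Slc6a13 (fibroblast) and Pdgfrb and Abcc9 (mural) were reactivated-only as deposited and none of these at equal length. Hox genes had 5 sites at equal length, 0 reactivated-only and 3 activated-only, and 13 as deposited, 4 reactivated-only and 1 activated-only. The part of other cell types in the classes was not tested.

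**Figure D3:**
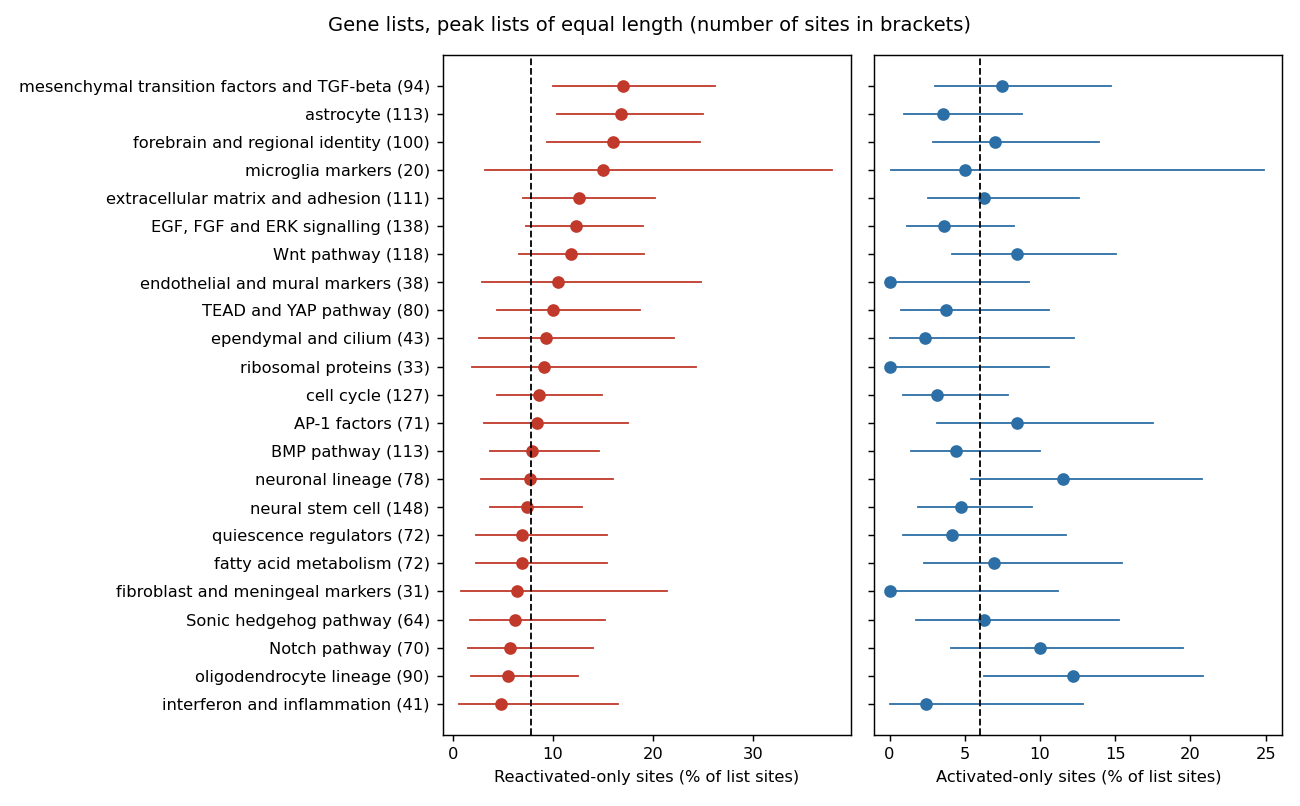
Percent of a list's sites that were reactivated-only (left) and activated-only (right) at equal length, with exact 95% intervals, for 23 gene lists. The Hox list, with 5 sites, is not drawn. The dashed lines mark all sites (7.84 and 6.02%). The astrocyte, mesenchymal and regional identity lists reach 16 to 17.0% on the left, and the oligodendrocyte list 12.2% on the right.

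Motifs were searched on both strands of the 200-bp windows, outside promoters and at equal length. The NFI motif TTGGCA was in 29.6% (27.9 to 31.4) of 2566 reactivated-only sites, 18.8% (17.1 to 20.5) of 2085 activated-only sites and 24.4% of all sites. The SOX motif ACAAAG was in 27.6% (25.8 to 29.3), 17.8% (16.2 to 19.5) and 23.9%. For both, the 2 classes lay on opposite sides of all sites. The longer NFI palindrome was rare, in 0.0779% of reactivated-only, 0.0480% of activated-only and 0.125% of all sites, and did not show this excess. The AP-1 motif TGANTCA went the other way, with 6.04% (5.15 to 7.03), 10.7% (9.40 to 12.1) and 9.20%. So did CTCF, the insulator protein, with 3.59, 7.05 and 5.28%, and the E-box CAGATG with 17.1, 23.6 and 20.8%. The E-box CAGCTG was in 24.2, 28.0 and 29.5%, the TEAD motif GGAATG in 12.4, 12.5 and 12.8% and the RUNX motif TGTGGTT in 4.25, 4.17 and 3.95%.

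In the lists as deposited, again outside promoters, the NFI motif was in 23.8% of 20023 reactivated-only sites, 14.5% of 235 activated-only sites and 23.3% of all sites, and the SOX motif in 24.4, 14.5 and 23.6%. The reactivated-only share of both motifs was then close to that of all sites. AP-1 was in 7.63, 6.81 and 8.71% and CTCF in 6.09, 1.28 and 5.97%. The E-box CAGATG was in 18.7, 19.6 and 20.4%, so its 2 classes lay closer together than at equal length. The E-box CAGCTG was in 22.6, 13.2 and 26.5% and the TEAD motif in 13.2, 7.66 and 13.0%. For AP-1, CTCF and CAGCTG the activated-only share was thus the lower of the 2 classes as deposited and the higher at equal length, and the TEAD shares were near each other only at equal length among these 2 settings. A match is a description of the letters in a window. The mean GC content of the windows outside promoters was 51.4% in reactivated-only, 50.5% in activated-only and 53.3% in sites of both states at equal length, and 51.1, 45.6 and 52.6% as deposited.

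**Figure D4:**
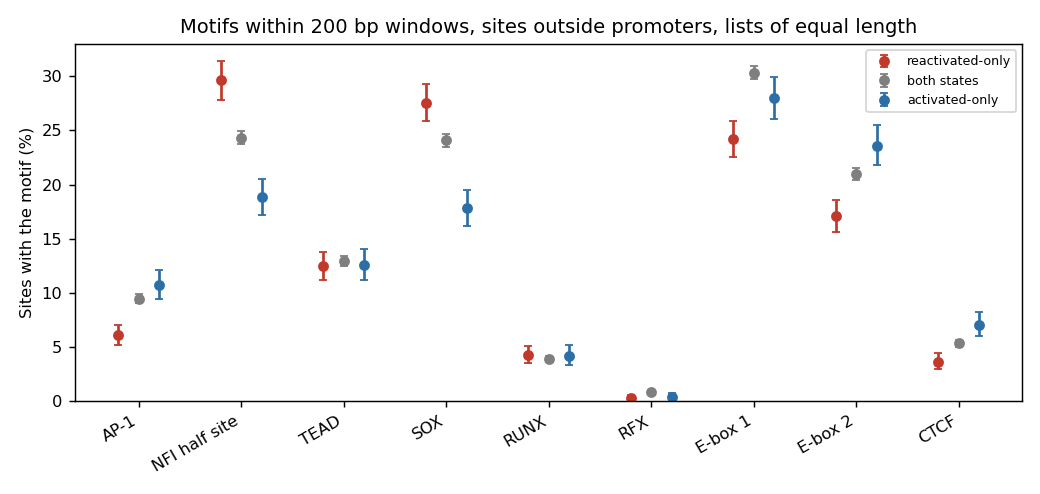
Percent of sites outside promoters with each motif in the 200 bp around the summit, at equal length, with exact 95% intervals, for reactivated-only, activated-only and both-state sites. E-box 1 is CAGCTG and E-box 2 is CAGATG. The NFI motif TTGGCA and the SOX motif are more frequent in reactivated-only (29.6 and 27.6%) than in activated-only sites (18.8 and 17.8%), and AP-1 less (6.04 and 10.7%).

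The height of peaks was compared at the 30174 sites with a peak in all 4 libraries, where the median fold enrichment was 6.37 and 5.28 in the activated and 9.39 and 9.58 in the reactivated libraries. After quantile normalization, limma called 730 sites higher in reactivated cells (2.42%) and 488 lower (1.62%) at an adjusted p of 0.05, with a median log2 difference of 1.02 and -0.92 among those called and -0.03 over all sites. All calls had adjusted p values between 0.0399 and 0.05, and 4164 and 4424 sites had an unadjusted p under 0.05. The calls therefore sat just inside the threshold. With activated 2, reactivated 1 or reactivated 2 left out, limma called 0 sites in either direction, with 3874 and 3603, 2267 and 2066, and 2641 and 2477 sites higher and lower at an unadjusted p under 0.05. Without activated 1 it called 863 and 351. Without normalization 14251 sites were called higher and 96 lower, with a median log2 difference of 0.56. Median centring gave 1089 higher and 2540 lower, and -log10 p in place of fold enrichment 98 and 128. Which direction had more calls therefore depended on the scaling and on the value tested.

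Sites called higher were seldom promoters. Promoters made up 139 (19%) of the higher sites, 161 (33.0%) of the lower sites and 38.9% of all sites tested. Both quiescent libraries had a peak at 72.3% of the higher, 74.4% of the lower and 75.1% of all tested sites. The median fold enrichment was 4.24 and 3.57 (activated) and 12.7 and 12.6 (reactivated) at the higher sites, and 7.41 and 6.42 and 5.34 and 5.45 at the lower sites.

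The largest increase was at a site near Pard3b, a cell polarity gene (chr1:61912940-61913406), with a fold enrichment of 4.11 and 2.57 in the activated and 16.9 and 15.0 in the reactivated libraries. Its log2 difference was 1.88 ± 0.26 (SE), with an adjusted p of 0.0399 by limma. Log2 differences here and below were taken after quantile normalization, whereas fold enrichments are as deposited. Without normalization the difference was 2.30 at Pard3b and -0.92 at the Kmt2a promoter named below. A site near Galntl6 followed with 5.57 and 5.85 against 24.8 and 26.4 (1.83 ± 0.18), and a site near Ercc6l2, a DNA repair helicase, with 4.64 and 2.42 against 15.6 and 15.6 (1.81 ± 0.32). The Pard3b, Galntl6 and Ercc6l2 sites lay 273930, 440590 and 73088 bp from the start sites. The largest decrease was at a site 696850 bp from the Neto1 start site, with 12.7 and 13.7 against 4.67 and 4.79 (-1.94 ± 0.18). Neto1 encodes an auxiliary subunit of glutamate receptors. A site near Gtpbp4 (22.3 and 23.2 against 8.41 and 11.2) was lower too. The promoter of Kmt2a, which encodes an H3K4 methyltransferase, was lower, with 12.8 and 12.3 against 6.60 and 6.68 (-1.47 ± 0.17).

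**Figure D5:**
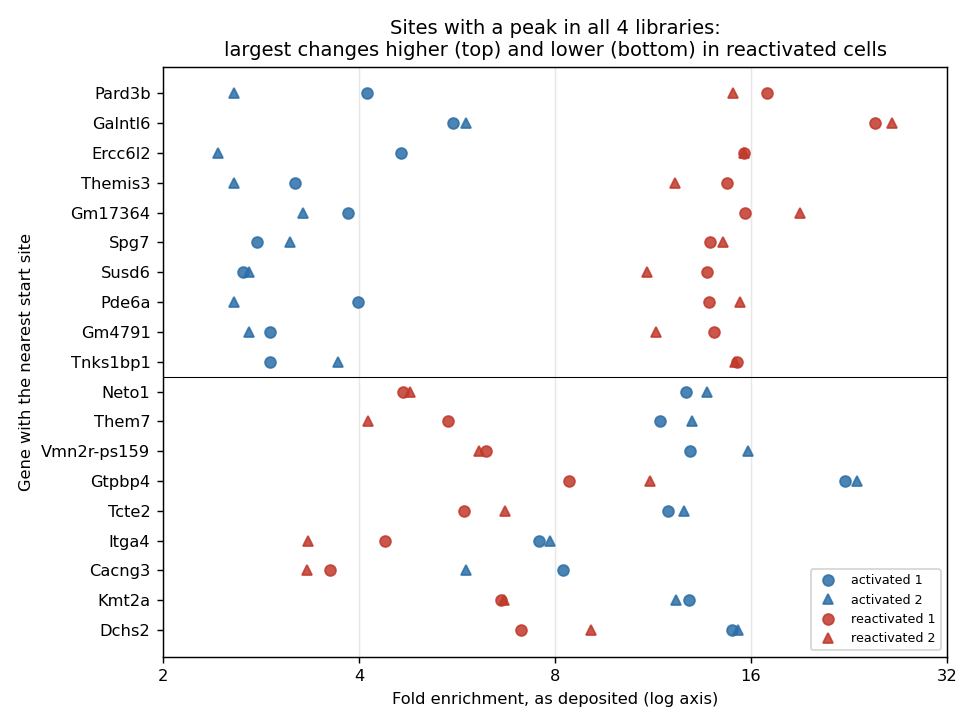
Fold enrichment in each library (logarithmic axis) at the 10 sites with the largest increase and 9 of the 10 with the largest decrease in reactivated cells among those called by limma, named by the nearest gene. The sites were chosen for their difference in these same 4 libraries. The activated and reactivated libraries therefore stand apart at them by selection, as at Pard3b (4.11 and 2.57 against 16.9 and 15.0).

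Of 38 list sites called higher 1 was a promoter (2.63%), and of 34 called lower 15 were (44.1%), against 38.9% of all sites tested. Over all 30174 sites, 2.42% were called higher and 1.62% lower, and 13.8 and 14.7% had an unadjusted p under 0.05 in each direction, to be set beside the counts that follow. In the astrocyte list 5 of 75 sites were higher and 0 lower (median log2 difference 0.03, against -0.03 over all sites), namely 2 near Gja1 (1.20 and 1.38) and 1 each near Nfia (1.40), Nfib (1.04) and Slc4a4 (0.95). The 2 Gja1 sites lay 514297 and 520766 bp from the start site. In the BMP list 4 of 92 were higher and 0 lower (median -0.16). At an unadjusted p under 0.05 by limma, 16 sites of the astrocyte list were higher and 13 lower, and 17 and 16 of the BMP list. The higher share of the astrocyte list was then 21.3%. Markers of other cell types had 28.6% (microglia), 26.9% (endothelial and mural), 25.8% (ependymal) and 9.52% (fibroblast and meningeal). Their higher and lower counts were 4 and 1, 7 and 1, 8 and 7, and 2 and 2. Smad4, the common partner of SMAD factors, had a site with 3.32 and 3.42 against 13.6 and 13.2 (1.45), and the promoter of Smad9, a BMP effector, had 4.24 and 3.28 against 11.9 and 10.7 (1.0). The other calls were near Smad1 (0.82) and Smad7 (1.23).

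In the EGF, FGF and ERK list 2 of 94 sites were higher and 7 lower (median -0.15). The promoters of Egr1, an immediate early factor (5.61 and 6.86 against 4.09 and 4.22, -1.14), and of the feedback inhibitors Dusp6 (-0.88), Spred1 (-0.88), Spred2 (-1.08) and Spry4 (-0.92) were lower, as were sites near Fgfr1 (-1.15) and Spry4 (-0.84). Sites 189058 bp from the Dusp6 start site (0.95) and 253035 bp from that of Spry2 (1.27) were higher. In the cell cycle list 2 of 95 were higher, near Ccnd2 (0.98) and Cdkn2b (1.12), and 2 lower, the promoters of Ccnd1 (7.11 and 5.42 against 4.55 and 4.71, -1.0) and Cdk4 (13.8 and 11.9 against 9.09 and 10.7, -0.95), the cyclin and the kinase that act together at the entry into the cell cycle. Without normalization these calls were lost at Ccnd1 (adjusted p by limma 0.131), Cdk4 (0.163), Spred2 (0.0809), Spred1 (0.328), both Spry4 sites (0.282 and 0.461) and the Dusp6 promoter (0.252), and held at Egr1 (0.0431) and Fgfr1 (0.0438).

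In the neural stem cell list 5 of 121 sites were higher and 2 lower (median -0.13), whereas at an unadjusted p under 0.05 by limma 18 were higher and 36 lower. A site near Vcam1, an adhesion molecule of niche stem cells, had 7.69 and 7.42 against 20.0 and 20.5 (0.90), and the others lay near Hes1 (1.01), Msi1 (1.08) and Pax6 (0.92 and 0.86). The Hes1 site lay 149799 bp from the start site. An intron site of Nes, which encodes the intermediate filament nestin, had 8.25 and 6.78 against 5.58 and 5.72 (-1.01). A site 204830 bp from the Sox2 start site was lower too (-0.87). In the mesenchymal list Zeb1 had a distal site that was higher (1.35) and a promoter that was lower (-1.19), and in the Wnt list a site near Dkk3 was higher (1.45) and the promoter of Ctnnb1, which encodes beta-catenin, lower (-0.87). In the hedgehog list 3 of 50 sites were higher, near Gas1 (1.51), Gli3 (1.06) and Shh (0.90), and the Sufu promoter was lower (-0.86), whereas 4 were higher and 11 lower at an unadjusted p under 0.05 (median -0.13). The Gli3 and Shh sites lay 349670 and 212715 bp from the start sites. The lower calls at Nes (adjusted p by limma 0.136), Sox2 (0.428), Ctnnb1 (0.362) and Sufu (0.382) were lost without normalization. That at the Zeb1 promoter held (0.0167). Under median centring the higher call of 0.92 near Pax6 was lost (0.62, adjusted p by limma 0.0542). A higher call of the oligodendrocyte list, near Lingo1, was lost there too (0.0600). No site of 28 in the ribosomal list was called in either direction by limma (median -0.31). At an unadjusted p under 0.05, 1 was higher and 7 lower. Of 76 oligodendrocyte sites 2 were higher and 1 lower, near Bcas1 (-1.10), with 5 and 17 unadjusted. Notch genes had 0 higher and 2 lower of 56, near Hey1 (-0.88) and Jag1 (-1.18), with 4 and 14 unadjusted. Neuronal genes had 0 and 2 of 56, with 11 and 8 unadjusted. Without normalization the calls at Bcas1 (adjusted p by limma 0.02) and Jag1 (0.028) held and that at Hey1 (0.299) was lost.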

How the data were processed

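The authors trimmed reads with Trim Galore 0.4.0, aligned them to mm10 with Bowtie2 2.2.5, marked duplicates with Picard 1.88, removed them with SAMtools 1.3.1 and called peaks per library with MACS at a false discovery rate of 0.05. Per the file headers and names, the reactivated reads were reduced in number beforehand. The deposited lists give for each peak a fold enrichment over local background (a ratio), -log10 p and -log10 q, and the summit offset. The deposited score, which the authors' caller derives from q, was not used. Fold enrichment is not normalized between libraries by the authors. Pileups were computed from p and fold enrichment.

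From these lists, merged sites (overlap of 1 bp or more), the nearest of 52092 protein-coding start sites (GENCODE M21, GRCm38) and promoters of 1 kb were computed with Python 3.11.15, and intervals with scipy 1.17.1. The log2 of fold enrichment was tested with limma 3.58.1 (R 4.3.3) after quantile normalization, with Benjamini-Hochberg adjustment. Scripts were tested on simulated data. Named were, per class, the 12 genes with most sites, the 12 strongest genes and promoters and the 10 strongest sites, the 10 largest changes called by limma in each direction, and list members with a call, of which a few are not reported here. Members and lists were chosen with earlier results of these data known. Alternatives were other list lengths, thresholds, windows, promoter widths, scalings and leaving out each library. Between 2.65 and 3.19% of peaks, on other chromosomes, were left out. The study's read-based comparison needs read counts, which were not used here.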

Additional observations from a re-analysis of the deposited data

How the results depend on the processing

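With 2 libraries per state, no read depth in the peak lists and lists of unequal length, the classes depended on how the lists were cut. The cause of each shift below was not tested beyond what the setting itself alters. With lists cut by -log10 p there were 3041 reactivated-only and 2337 activated-only sites, 234 and 202 genes and 291 and 92 promoters. Of the reactivated-only sites 34.3% were open in both quiescent libraries and 17.2% carried activated H3K4me3, and of the activated-only sites 31.4 and 14.4%. The promoter share difference reversed to 0.972 points, and limma called 1413 higher and 1271 lower. Cut by fold enrichment, the counts were 4074 and 2549 sites, 333 and 190 genes and 361 and 177 promoters, with 30.9% quiescent and 12.1% H3K4me3 for reactivated-only and 30.1% H3K4me3 for activated-only sites. Joined first and then cut, they were 2875 and 2351, 220 and 217, and 289 and 95, with 33.3 and 16.7%, and 30.6 and 13.2%.

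A -log10 q of at least 10 gave 109 activated-only sites, 5 activated-only genes, 11% quiescent and 18.6% H3K4me3 for reactivated-only sites and a promoter share difference of -15.3 points. Windows of 200 bp around summits gave 393 activated-only sites, with 15.2 and 21.8% for reactivated-only and 30.3 and 21.9% for activated-only sites. Without sites masked at 50% or more, chosen after seeing the data, there were 163 activated-only sites, 25.8% of them open in both quiescent libraries. Chromosomes X and Y added gave 25 activated-only genes and 5 promoters, windows of 25 and 10 kb gave 5 genes and promoters of 2 kb gave 7. Joining peaks up to 150 bp apart gave 17.3 and 8.32% for reactivated-only sites.

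For limma, no normalization gave 14251 higher and 96 lower, -log10 p in place of fold enrichment 98 and 128, median centring 2540 lower and a mean fold of 4 or more 744 lower. Same-numbered libraries did not deviate together (correlation 0.00477), and a replicate block gave 1163 higher and 675 lower. Higher calls were 59.9% of calls in the analysis reported, 30.0% under median centring and 99.3% without normalization.

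Leaving out 1 library gave 25828 to 38512 reactivated-only and 504 to 1691 activated-only sites, 1543 to 2077 and 20 to 62 genes, and 1328 to 1681 and 10 to 28 promoters. Quiescent shares were 11.6 to 21.1% and 10.9 to 36.1%, H3K4me3 shares 13.5 to 14.4% and 3.79 to 7.74%, limma calls 0 to 863 higher and 0 to 351 lower, and the promoter share difference -11.6 to -7.47 points. A state with 1 library counts as open wherever that library has a peak, which raises the counts by construction. Of the other values under settings that keep all libraries, 35 for these results stayed within the spread or 1.5 times, 56 moved and 1 reversed, and among named genes and sites 146 did and 86 moved, with 0 reversed.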
